A study of Homo sapiens with 8 samples.

Results

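Valine tRNAs carry valine to the ribosome in 3 isoacceptors, which differ in the anticodon and so in the valine codons they read: tRNA-Val-AAC, tRNA-Val-CAC and tRNA-Val-TAC (Val-AAC, Val-CAC and Val-TAC below). They were chosen by name, as every sense-strand crosslink site on a reference sequence called tRNA-Val in all 8 libraries. This gave 3 of 55 RNA families (50 tRNA families and 5 ribosomal ones), 16 of 252 tRNA references and 28 of 413 tRNA gene names. Together they held 648 sites, a site being a position on a reference with a count in at least 1 library.

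The study asked which RNAs, and which positions in them, are contacted by the human dihydrouridine synthases DUS2L and DUS1L. Contacts were mapped by iCLIP, in which a protein is purified with the RNA attached to it and the attachment point is read from where reverse transcription stops. All libraries came from Flp-In T-Rex 293 cells, a human embryonic kidney line, in which a 3xFLAG-tagged copy of either enzyme is switched on by tetracycline. The endogenous enzymes were not stated to have been removed. Every group received 1 µg/mL tetracycline for 12 h and, after a change of medium, for 12 h more. The 4 groups, of 2 libraries each, were DUS2L with 100 µM 5-chlorouridine (5-ClUrd) during the later 12 h, DUS2L without it, DUS1L with 100 µM 5-ClUrd, and DUS1L without it. The groups without 5-ClUrd are called untreated. The series describes the replicates as biological, and nothing further was given on how they were separated, so p-values measure the spread between these libraries. No input library was used here, so stronger contact and more abundant tRNA cannot be told apart. Nor can a crosslink be told apart from a stop of reverse transcription with another origin.

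Dihydrouridine synthases reduce uridine to dihydrouridine, a flexible base that gives the D loop of tRNA its name. As background, human DUS2L acts on position 20 and DUS1L on positions 16 and 17 of the canonical tRNA numbering. 5-ClUrd is taken up into new RNA in place of uridine, and a synthase that attacks the chlorinated base can stay covalently bound to it. In Val-AAC the first anticodon base is edited from adenosine to inosine in mature tRNA, so that this isoacceptor reads several valine codons, whereas Val-CAC reads the codon ending in G and Val-TAC mainly the one ending in A. Positions below are counted from 1 at the 5′ end of each reference. They were not aligned to the canonical numbering, because no tRNA sequences were used here, and for the same reason none are printed. Whether a deposited position is the crosslinked base or the stop beside it was not given in the sources used here. Names of loops and stems below follow the canonical numbering and are approximate.

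RefSeq's table for GRCh38.p14, the hg38 build named in the submitters' processing notes, held all 28 gene names as symbols. Val-AAC comprised 10 genes in 6 references, Val-CAC 13 genes in 6 references and Val-TAC 5 genes in 4 references. The genes lie in several clusters, with 5 of the 10 Val-AAC genes on chromosome 6 and 4 on chromosome 5. RefSeq lists 27 of them as tRNA genes and TRV-CAC14-1 (chr20:45322361-45322433) as a pseudogene. All are 73 bases long except TRV-AAC6-1, of 72 bases, so counts of the isoacceptors can be set side by side without a correction for length.

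Libraries differed in depth. Sense counts totalled 370878 and 363024 in 5-ClUrd DUS2L libraries, 130011 and 172078 in untreated DUS2L libraries, 824657 and 542521 in 5-ClUrd DUS1L libraries, and 144322 and 7369 in untreated DUS1L libraries. The second untreated DUS1L library therefore carried 552 valine counts, against 6855 to 61062 in the other 7. A count of 3 in that library was 0.0407% of its sense counts. Single-site counts were bunched near an upper bound: the highest valine site had 1154 counts although totals differed by more than an order of magnitude, and sites above 500 counts supplied 0% to 52.8% of a library's valine counts. Each effect of 5-ClUrd on a family was therefore also computed without those sites. Premapping to non-coding RNA is named in the titles of the DUS2L site files and not in those for DUS1L, so enzyme and making of the files cannot be told apart.

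Valine tRNAs together took 9.26% and 8.95% of sense counts in 5-ClUrd DUS2L libraries, against 5.27% and 5.82% in untreated DUS2L libraries. In DUS1L cells the shares were 7.40% and 6.80% with 5-ClUrd, against 14.7% and 7.49% without. The DUS2L groups stood apart, and the spread of the untreated DUS1L pair covered more than the gap between the DUS1L groups. Val-CAC was the most counted isoacceptor in every library.

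**Figure D1:**
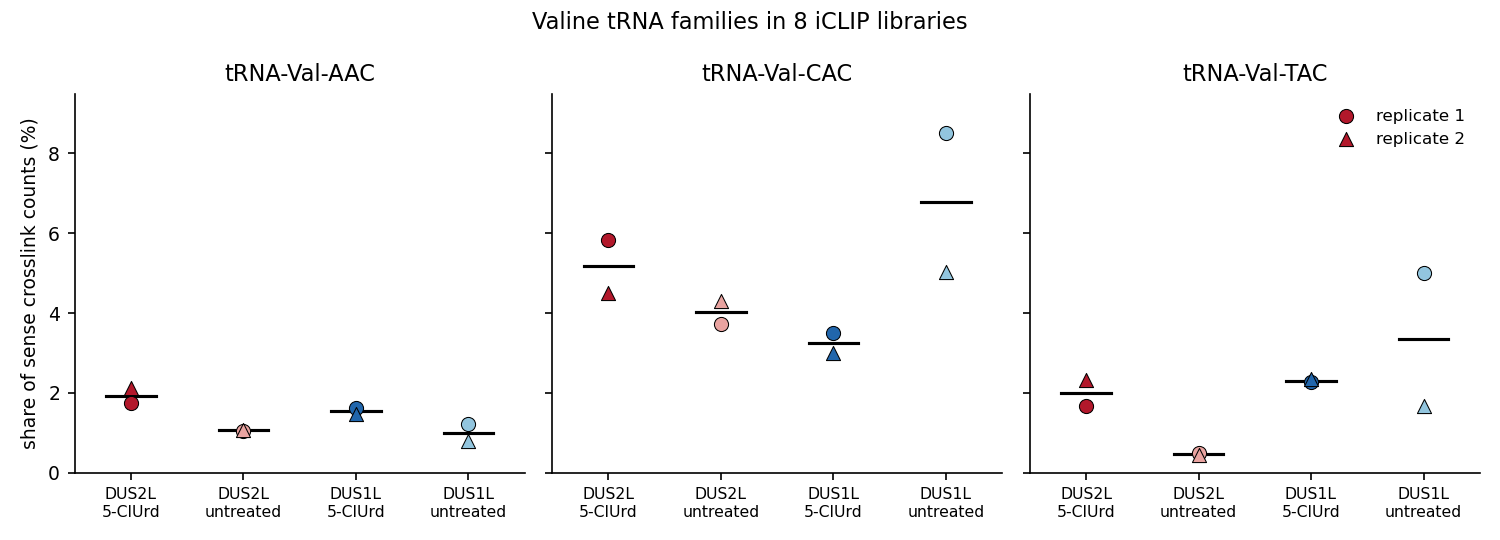
Share of sense crosslink counts (%) on Val-AAC, Val-CAC and Val-TAC in each of the 8 libraries, with a point per library (circle for replicate 1, triangle for replicate 2) and a horizontal line at the mean of each of the 4 groups. Val-TAC stands lowest in untreated DUS2L libraries (0.496% and 0.437%) and highest in the first untreated DUS1L library (5.01%).

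In DUS2L cells, 5-ClUrd went with a larger share of counts on Val-TAC. Val-TAC held 1.68% and 2.32% of sense counts in 5-ClUrd DUS2L libraries, against 0.496% and 0.437% in untreated DUS2L libraries. Both treated libraries lay far above both untreated ones, and Val-TAC rose by 2.10 ± 0.24 on the log2 scale (SE, edgeR quasi-likelihood test, adjusted p = 0.000329). The rise held under all 13 alternatives, with log2 changes between 1.35 and 2.32.

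Val-AAC, the inosine-bearing isoacceptor, held 1.74% and 2.12% of sense counts in 5-ClUrd DUS2L libraries, against 1.06% and 1.07% in untreated DUS2L libraries. The groups did not overlap, and Val-AAC rose by 0.86 ± 0.21 on the log2 scale (SE, edgeR adjusted p = 0.00912). Val-AAC was itself the median of all 55 families, which was thus 0.86. With TMM factors, which centre the families, the median was 0.21, Val-AAC changed by 0.21 and the call was lost (edgeR adjusted p = 0.446, within a range of 1.01e-06 to 0.691 over its alternatives). The call was also lost without the first (edgeR adjusted p = 0.155) or the second (0.149) untreated DUS2L library.

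Val-CAC held 5.84% and 4.51% of sense counts in 5-ClUrd DUS2L libraries, against 3.72% and 4.31% in untreated DUS2L libraries. The groups were separate by a narrow gap, and the log2 change of 0.36 ± 0.23 did not pass the test (edgeR adjusted p = 0.178) and turned to -0.28 with TMM factors. Without sites above 500 counts it was 0.93 and passed (edgeR adjusted p = 0.0193), and without the second 5-ClUrd DUS2L library it was 0.54 and passed (0.0280). In all, 2 of 3 valine families passed, both higher, beside 76.4% of families tested in either direction and 52.7% higher. The groups of all 3 valine families did not overlap, beside 89.1% of all families.

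In DUS1L cells no valine family passed the edgeR test of 5-ClUrd against untreated, beside 24.5% of families that did, 22.6% higher and 1.89% lower. At an unadjusted p under 0.05 the edgeR count was 1 of 3, and the DESeq2 Wald test called 2 of 3, Val-CAC at -2.37 and Val-TAC at -1.89. Val-CAC held 3.50% and 3.00% of sense counts in 5-ClUrd DUS1L libraries, against 8.52% and 5.02% in untreated DUS1L libraries. Both treated libraries were lower, with a log2 change of -1.06 ± 0.34 (SE, edgeR adjusted p = 0.0615). Sites above 500 counts, towards the upper bound on site counts, supplied 66.8% and 42.7% of Val-CAC counts in 5-ClUrd DUS1L libraries. In untreated DUS1L libraries they supplied 51.3% and 0%. Over all 13 alternatives, among them that without these sites, the log2 change ran from -2.37 to -0.63. The change passed without the first untreated DUS1L library, at -0.63, and without the second, at -1.39, and with TMM factors, at -2.11, where the median of all families was 0.32 in place of 1.35.

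Val-TAC held 2.27% and 2.34% in 5-ClUrd DUS1L libraries, against 5.01% and 1.68% in untreated DUS1L libraries. The treated pair lay between the untreated ones, and the log2 change of -0.54 ± 0.58 did not pass (SE, edgeR adjusted p = 0.483). It was 0.46 and passed as a rise without the first untreated library (edgeR adjusted p = 0.0486), and -1.12 and passed as a fall without the second (2.76e-08). The direction of Val-TAC in DUS1L cells thus rested on which untreated library was kept.

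Val-AAC held 1.63% and 1.46% in 5-ClUrd DUS1L libraries, against 1.21% and 0.787% in untreated DUS1L libraries. Both treated libraries were higher, and the log2 change of 0.62 ± 0.61 did not pass (SE, edgeR adjusted p = 0.459) and turned to -0.42 with TMM factors. Without the first untreated DUS1L library it was 0.97 and passed (edgeR adjusted p = 0.000671). The groups of 2 of 3 valine families did not overlap in DUS1L cells, beside 75.5% of all families.

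The effect of 5-ClUrd differed between the enzymes for Val-TAC and Val-CAC. For Val-TAC, the effect in DUS2L minus that in DUS1L was 2.65 ± 0.73 on the log2 scale (SE, edgeR adjusted p = 0.0306). For Val-CAC it was 1.43 ± 0.40 (SE, edgeR adjusted p = 0.0306), and for Val-AAC 0.25 ± 0.49 (SE, edgeR adjusted p = 0.668), a difference that turned to -0.70 with TMM factors. Of 55 families, 29.1% passed this test, and 10.9% passed with the larger effect in DUS2L. Over all 16 alternatives, among them that without sites above 500 counts, the Val-CAC difference ran from 0.51 to 2.05. Both calls were lost with TMM factors, at 1.87 for Val-TAC and 0.51 for Val-CAC. They were also lost when any 1 of the 4 DUS2L or the 2 treated DUS1L libraries was left out (edgeR adjusted p between 0.0528 and 0.118, with differences of 2.40 to 2.86 for Val-TAC and 1.23 to 1.60 for Val-CAC). With the first untreated DUS1L library left out, the differences passed at 1.65 for Val-TAC and 0.99 for Val-CAC, and without the second at 3.22 for Val-TAC and 1.76 for Val-CAC.

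Set enzyme against enzyme with 5-ClUrd present, no valine family passed: DUS2L minus DUS1L was 0.67 ± 0.28 on the log2 scale for Val-CAC (SE, edgeR adjusted p = 0.0685), 0.32 ± 0.35 for Val-AAC (0.426) and -0.20 ± 0.51 for Val-TAC (0.742). At an unadjusted p under 0.05 the edgeR count was 1 of 3, and the DESeq2 Wald test called none. Of all families, 65.5% passed the edgeR test. Val-CAC passed at 1.42 without sites above 500 counts, and at 0.67 without either untreated DUS1L library. Val-AAC turned to -0.11 with TMM factors, and Val-TAC to 0.01 without the first 5-ClUrd DUS2L library. Shares of sense counts of Val-AAC and Val-CAC were higher in both treated DUS2L libraries than in both treated DUS1L libraries, a separation that 89.1% of families showed.

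In untreated cells Val-TAC was lower in DUS2L than in DUS1L libraries, with a log2 difference of -2.86 ± 0.55 (SE, edgeR adjusted p = 0.00169), beside 89.1% of families that passed, 47.3% of families higher and 41.8% lower. The difference held under all 16 alternatives, between -3.43 and -1.85. Val-CAC was lower too, by -0.76 ± 0.28 (SE, edgeR adjusted p = 0.034), and its call was lost with TMM factors, at -0.27, and without the first untreated DUS1L library, at -0.32. It was further lost when either treated DUS1L library (both -0.76) or either untreated DUS2L library (-0.65 and -0.87) was left out. Shares of Val-TAC and Val-CAC did not overlap between the untreated enzymes, a separation that 96.4% of families showed. Val-AAC differed by 0.07 ± 0.35 (SE, edgeR adjusted p = 0.843), and by -1.67 with a pass (0.00604) when sites above 500 counts were left out. It turned to -0.19 without the second untreated DUS1L library.

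Position by position, the rise in DUS2L cells lay mostly at the 5′ end of the valine tRNAs. Of 133 valine sites tested, here summed over the references of an isoacceptor, 43 were higher and 2 lower with 5-ClUrd, beside 15.5% of all sites that were higher and 23.8% that were lower. Positions 2 to 14 held 33 of the 43, out of 39 tested there, with 13 of 13 for Val-TAC and 10 of 13 each for Val-AAC and Val-CAC. Other tRNAs were higher at 46.6% of their 378 sites in that stretch. Without the first or the second untreated DUS2L library, which leaves 1 untreated library, the edgeR test called no valine site as higher, with 24 and 21 at an unadjusted p under 0.05.

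Val-TAC position 2 was the most counted site of that isoacceptor in 5-ClUrd DUS2L libraries. It had 2293 and 1964 counts in 5-ClUrd DUS2L libraries, against 102 and 143 in untreated DUS2L libraries. As a share of Val-TAC these were 36.7% and 23.3%, against 15.8% and 19.0%, and the site rose by 2.84 on the log2 scale (edgeR adjusted p = 1.45e-15). Position 9, in the bases that link the acceptor stem to the D arm, had 589 and 1072 counts with 5-ClUrd, against 38 and 37 without, and rose by 3.16 (edgeR adjusted p = 2.57e-08). For both positions the edgeR adjusted p was 0.118 when the first untreated DUS2L library was left out and 0.0919 when the second was.

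The 5 valine sites with the largest rises in DUS2L cells were at or near 0 without 5-ClUrd. Val-TAC position 5 had 78 and 187 counts in 5-ClUrd DUS2L libraries, against 1 and 0 in untreated ones, a ratio per library size of 109 with an exact 95% interval of 19.4 to 4324 that covers counting error only. On the same basis, Val-CAC position 6 (44 and 143 counts, against 1 and 0) had a ratio of 77.0, and Val-TAC position 8 (83 and 180 counts, against 2 and 0) one of 54.1. Val-TAC position 31 had 20 and 8 counts with 5-ClUrd and none without. Position 34, the first anticodon base in canonical numbering, had 15 and 10 counts with 5-ClUrd and none without. All 5 sites reached the minimum of 10 counts only through the treated libraries, so their calls are a description. Set against a floor of 3 counts over the untreated group, position 31 was at least 3.84-fold and position 34 at least 3.43-fold higher. Both calls were also lost without the second 5-ClUrd DUS2L library (edgeR adjusted p = 0.0811 and 0.128) and with a replicate block.

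The 2 falls in DUS2L cells were both on Val-CAC. Position 26, the base between the D and anticodon stems, had 1964 and 1119 counts in 5-ClUrd DUS2L libraries, against 901 and 1456 in untreated ones, and fell by 0.88 on the log2 scale after scaling to library size (edgeR adjusted p = 0.00202). Position 17 had 1027 and 441 counts, against 439 and 617, and fell by 0.81 (edgeR adjusted p = 0.0388). Both sites had 439 counts or more in every DUS2L library. On the reference shared by TRV-CAC1-7, position 26 had 1053 and 790 counts with 5-ClUrd, against 551 and 830 without. A fall there after scaling to depth cannot be told apart from the upper bound on site counts. Without sites above 500 counts position 26 turned to 0.31, and with TMM factors neither fall passed. Neither passed without the first or the second untreated DUS2L library, nor without the second 5-ClUrd DUS2L library, where position 26 was at -0.54 and position 17 at -0.33.

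**Figure D2:**
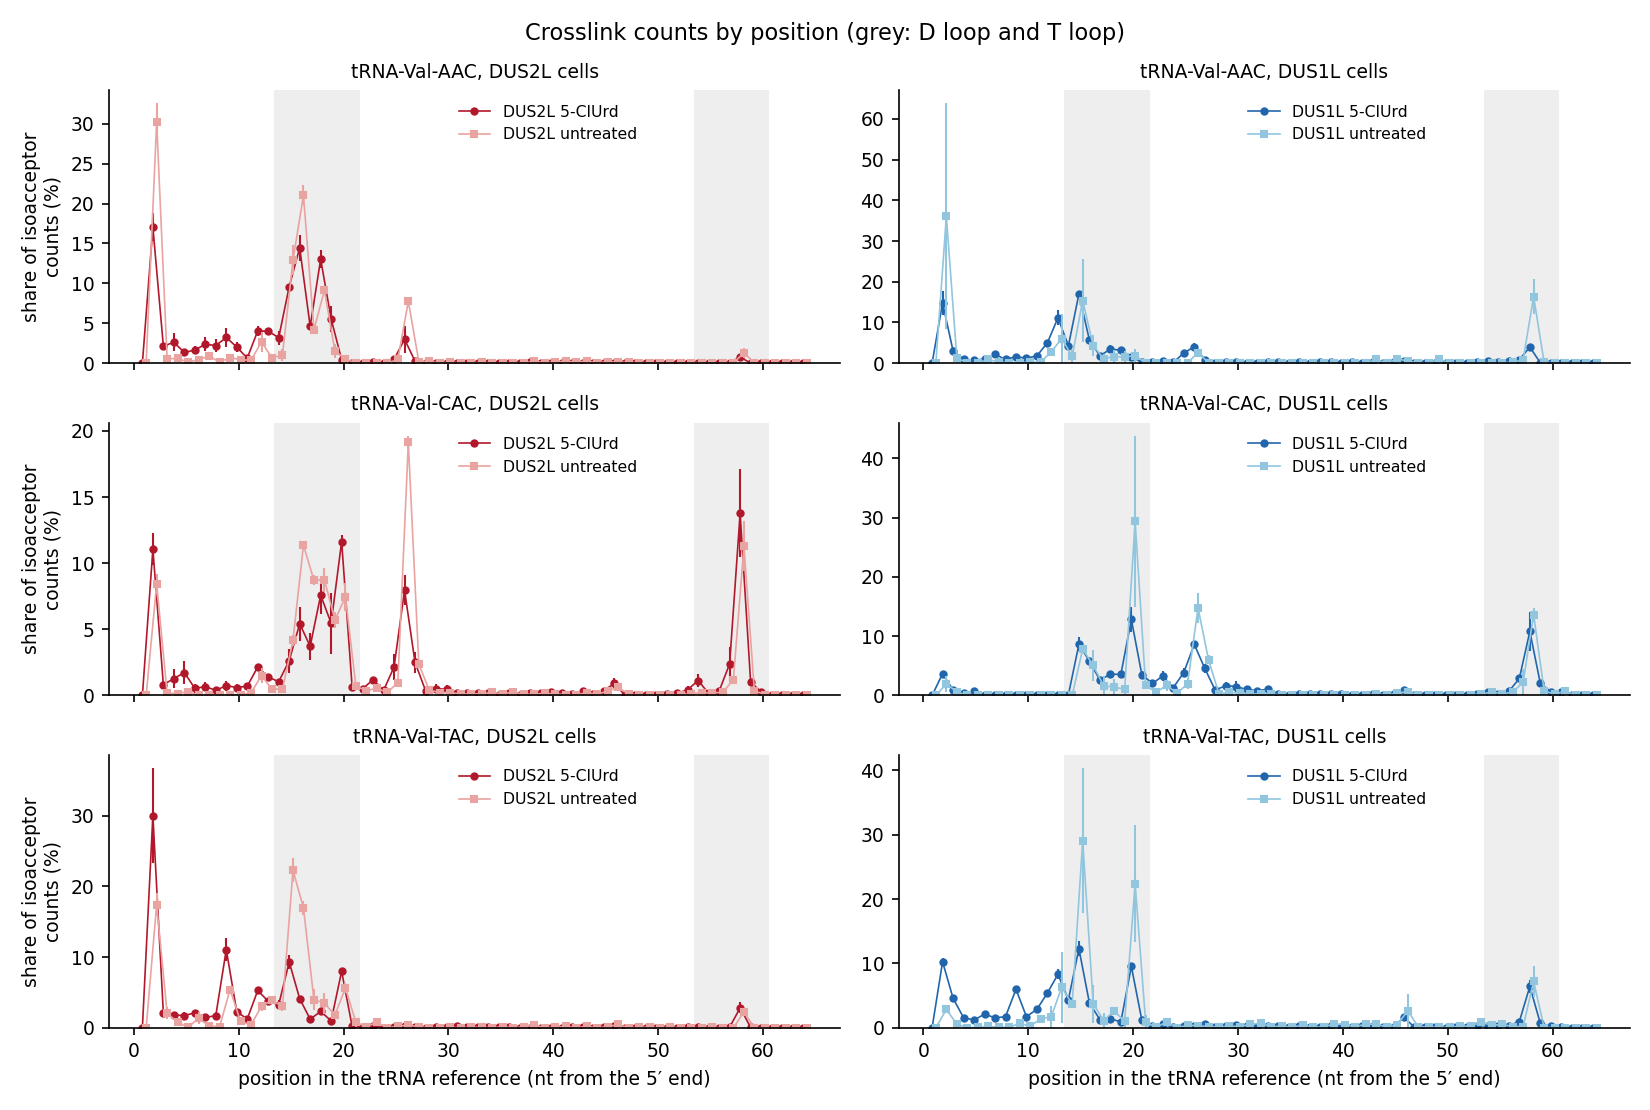
Share of each isoacceptor's counts (%, mean of 2 libraries) by position on the reference, with 5-ClUrd and untreated lines in DUS2L and DUS1L cells, vertical lines that span the values of the 2 libraries, and the D and T loops in grey. Peaks stand at positions 2, 15, 16, 20, 26 and 58, and the anticodon loop is nearly empty.

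In DUS1L cells 9 of 178 valine sites were higher and 11 lower with 5-ClUrd, beside 26.8% of all sites that were higher and 1.5% that were lower. The 9 rises comprised 5 on Val-AAC, 3 on Val-CAC and 1 on Val-TAC and lay at positions 4 to 25. The largest were Val-AAC position 5 (115 and 48 counts with 5-ClUrd, none without), at least 6.03-fold higher against the floor of 3 counts, and Val-AAC position 23 (80 and 25 counts, none without), at least 3.88-fold. Val-CAC position 13 was at least 2.55-fold higher and Val-AAC position 21 at least 2.03-fold. Val-CAC position 4 had 121 and 72 counts, against 1 and 0, a ratio of 21.4 (exact 95% interval 3.80 to 850). All 5 reached the minimum of 10 counts only through the treated libraries, so their calls are a description. None of these 5 passed without the first untreated DUS1L library, which left a lone untreated library of 7369 sense counts. Val-AAC position 21 was also lost without the second (edgeR adjusted p = 0.0681).

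Of the 11 falls in DUS1L cells, 10 were on Val-TAC at positions 32 to 55, through the anticodon and T arms. These were the only falls among 105 valine sites tested at positions 27 to 64, where 1.26% of the sites of other tRNAs were lower. Position 45 had 34 and 20 counts in 5-ClUrd DUS1L libraries, against 70 and 0 in untreated ones. Positions 42 and 43 had 60 and 14 counts and 58 and 17 counts with 5-ClUrd, against 81 and 0 and 84 and 0. In each case all untreated counts came from the first library, and the calls at positions 32, 42, 43 and 45 were lost without either 5-ClUrd DUS1L library. Log2 changes of the 5 largest falls ran from -3.19 at position 50 to -2.96 at position 42, and without that library 4 of these 5 turned, to 5.31 at position 50, 7.17 at 45, 7.56 at 43 and 7.52 at 42. The other fall was Val-CAC position 20, the DUS2L target position in canonical numbering, with 3103 and 2421 counts with 5-ClUrd, against 1842 and 162 without, and a log2 change of -2.08 (edgeR adjusted p = 0.0482). Its counts lay near the upper bound on site counts: on the reference shared by TRV-CAC1-7 they were 1154 and 1025 in 5-ClUrd DUS1L libraries, against 1047 and 133 in untreated DUS1L libraries, so a fall after scaling to depth cannot be told apart from that bound. Without sites above 500 counts it was -1.48 and did not pass (edgeR adjusted p = 0.119). It was also lost without either 5-ClUrd DUS1L library (edgeR adjusted p = 0.458 and 0.345). Without the first untreated DUS1L library 1 valine site was lower, and without the second 42 were.

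In DUS2L cells Val-CAC position 20 was higher with 5-ClUrd. It had 2405 and 1987 counts in 5-ClUrd DUS2L libraries, against 413 and 472 in untreated ones, and rose by 1.01 on the log2 scale (edgeR adjusted p = 0.00163). Val-TAC position 20 rose as well, with 515 and 653 counts against 41 and 37, by 2.59 (edgeR adjusted p = 7.77e-05). As shares, Val-CAC position 20 took 11.1% and 12.1% of the isoacceptor in 5-ClUrd DUS2L libraries, 8.54% and 6.36% in untreated DUS2L libraries, 10.8% and 14.9% in 5-ClUrd DUS1L libraries, and 14.98% and 43.8% in untreated DUS1L libraries. Neither rise passed without either untreated DUS2L library. Whether the effects at this site differed between the enzymes was not tested.

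With 5-ClUrd present, DUS2L and DUS1L libraries differed at 32 of 181 valine sites, 14 higher and 18 lower in DUS2L, beside 22.9% of all sites that were higher and 19.0% that were lower. The higher sites comprised 12 on Val-CAC, between positions 2 and 18, and 2 on Val-AAC. The lower sites comprised 12 on Val-TAC, between positions 21 and 60, 5 on Val-AAC, between positions 43 and 58, and 1 on Val-CAC. Over positions 27 to 64, 17 of 106 valine sites were lower, beside 39.98% of the sites of other tRNAs, and over positions 2 to 14, 11 of 39 were higher, beside 35.8%. Dropping the first 5-ClUrd DUS1L library left 11 higher and 4 lower, and dropping the second left 9 and 11. Under DESeq2 size factors 63 were higher and none lower, so the direction of the balance rested on the scaling.

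The 5 largest rises in DUS2L against DUS1L with 5-ClUrd were at the 5′ end of Val-CAC, with counts summed over its references. Position 8 had 39 and 97 counts in 5-ClUrd DUS2L libraries, against 2 and 0 in 5-ClUrd DUS1L libraries, a ratio of 127 (exact 95% interval 34.4 to 1057). Position 12, in the D stem, had 514 and 317 counts, against 43 and 11, a log2 difference of 4.93. Positions 6, 7 and 9 differed by 5.76, 5.14 and 5.43 in the same direction, and all were higher in both DUS2L libraries. Position 2 had 2135 and 2004 counts, against 934 and 669, a log2 difference of 2.25 (edgeR adjusted p = 0.0025). Over positions 6 to 14 together, Val-CAC held 7.0% and 9.48% of its counts in 5-ClUrd DUS2L libraries, 3.37% and 2.36% in untreated DUS2L libraries, 0.575% and 0.542% in 5-ClUrd DUS1L libraries, and 0.114% and 0.270% in untreated DUS1L libraries. Val-CAC-1-7, with no counts at positions 2 to 9, held 29.5% and 17.9% of Val-CAC in 5-ClUrd DUS2L libraries. In 5-ClUrd DUS1L libraries it held 46.7% and 45.2%. Val-CAC-3-1 held 27.8% and 38.9% in 5-ClUrd DUS2L and 2.07% and 4.44% in 5-ClUrd DUS1L libraries. The part of read assignment among references in these site differences was not tested.

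The 5 largest falls in DUS2L against DUS1L with 5-ClUrd were in the T loop, at positions 56 to 60. Val-TAC position 59 had 6 and 3 counts in 5-ClUrd DUS2L libraries, against 147 and 78 in 5-ClUrd DUS1L libraries, a log2 difference of -3.68. Val-TAC position 60 had 0 and 2 counts, against 58 and 33, so that DUS1L was higher by a ratio of 24.4 (exact 95% interval 6.57 to 205). Val-TAC positions 57 and 56 differed by -3.52 and -3.45, and Val-AAC position 57 by -3.55. At Val-AAC position 58, a position commonly methylated in tRNA in canonical numbering, counts lay almost wholly on the reference of TRV-AAC5-1. That reference had 26 and 85 in 5-ClUrd DUS2L and 470 and 346 in 5-ClUrd DUS1L libraries. Summed over references, position 58 had 26 and 85 in 5-ClUrd DUS2L libraries, against 473 and 346 in 5-ClUrd DUS1L libraries (log2 difference -1.99, edgeR adjusted p = 0.0374). That call was lost without either 5-ClUrd DUS1L library, either untreated DUS2L library or the first 5-ClUrd DUS2L library, and the difference turned to 0.016 under both DESeq2 scalings. Under DESeq2 size factors the 5 largest falls no longer passed (log2 differences of -2.51 to -1.50), and 3 of them, at Val-TAC positions 56 and 60 and Val-AAC position 57, were lost without the first 5-ClUrd DUS2L library. Val-TAC position 56 was also lost without the first 5-ClUrd DUS1L library (edgeR adjusted p = 0.0507).

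**Figure D3:**
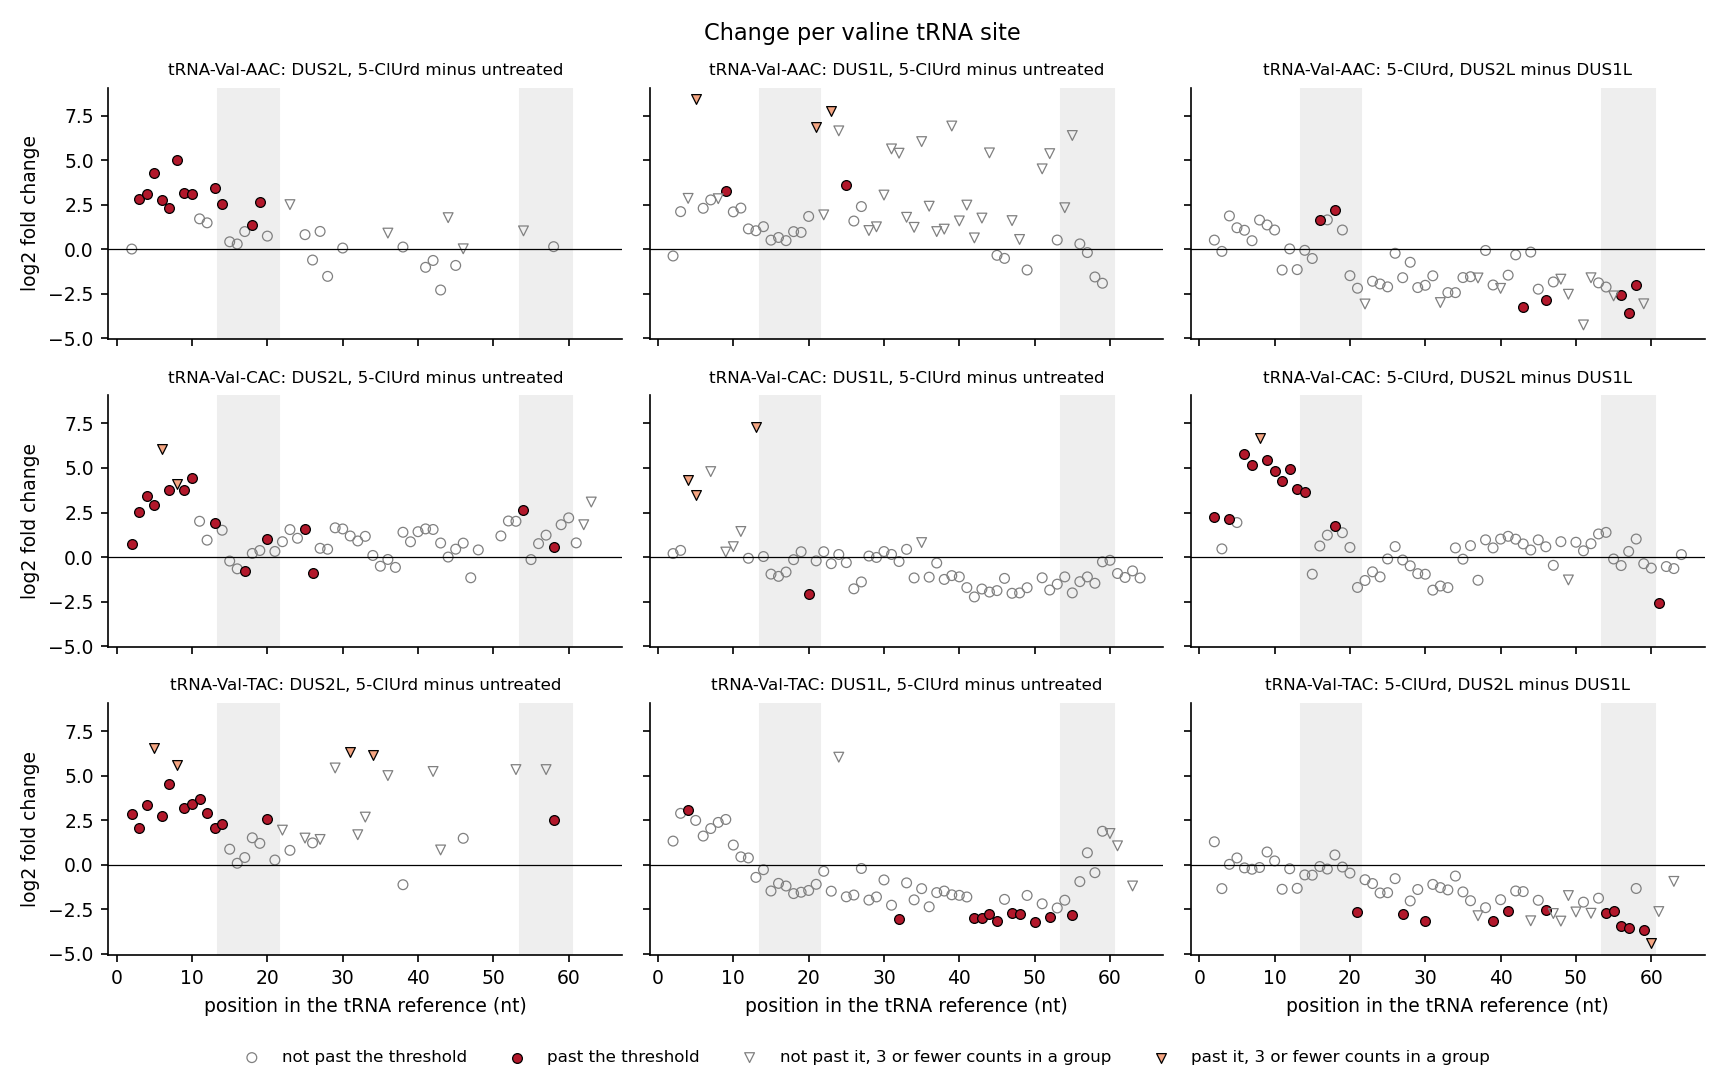
Log2 change of each tested valine site by position, in rows for the isoacceptors and columns for the comparisons, with filled marks for sites past the adjusted threshold of 0.05, triangles for sites with 3 or fewer counts in a group, and the D and T loops in grey. In DUS2L cells the rises crowd positions 2 to 14, and between treated enzymes called Val-TAC and Val-AAC sites towards the 3′ end are lower in DUS2L, none of them called under DESeq2 size factors, while Val-CAC is higher at the 5′ end.

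Within the isoacceptors, the main positions by count were shared by the enzymes but weighted differently. Val-AAC had its highest treated share at position 2 in DUS2L cells, 18.8% and 15.3%, against 32.6% and 27.9% in untreated DUS2L libraries. In 5-ClUrd DUS1L libraries position 15 had the highest mean share, with 17.1% and 16.9%, against 25.6% and 5.17% in untreated DUS1L libraries. Position 2 held 11.8% and 17.8% in 5-ClUrd DUS1L libraries and led in the second, so the lead position did not separate the enzymes. Val-AAC position 18 held 14.2% and 11.9% in 5-ClUrd DUS2L libraries and 4.46% and 2.40% in 5-ClUrd DUS1L libraries, a log2 difference in counts of 2.20 (edgeR adjusted p = 0.0117). Position 16 was also higher in DUS2L, at 16.1% and 12.9% against 5.79% and 5.58% in DUS1L (1.65, edgeR adjusted p = 0.0462). The call at position 18 was lost without the second 5-ClUrd DUS1L library or either 5-ClUrd DUS2L library, and that at position 16 without any 1 of the 4 treated or the 2 untreated DUS2L libraries. Position 13 stood in the opposite order, at 3.64% and 4.34% in 5-ClUrd DUS2L libraries and 9.29% and 12.96% in 5-ClUrd DUS1L libraries. Its log2 difference in counts of -1.14 ± 0.76 did not pass (SE, edgeR adjusted p = 0.218).

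Val-TAC lost weight in the D loop (positions 14 to 21) with 5-ClUrd. The D loop held 27.6% and 31.3% of Val-TAC counts in 5-ClUrd DUS2L libraries, against 59.1% and 56.8% in untreated DUS2L libraries. In DUS1L cells it held 32.5% and 37.2% with 5-ClUrd, against 50.2% and 79.0% without. Over positions 2 to 9 the order was turned, with 55.4% and 48.6% in 5-ClUrd DUS2L libraries, 27.8% and 27.3% in untreated DUS2L libraries, 29.5% and 28.6% in 5-ClUrd DUS1L libraries, and 4.38% and 4.84% in untreated DUS1L libraries. The groups did not overlap within either enzyme, and how many other families separated so was not counted. With 2 against 2 libraries an exact two-sided permutation p cannot fall below 0.333, so no region share could pass. Among tRNA families with at least 20 counts in every library, those other than valine also moved over positions 2 to 9. Their median was 13.9% in 5-ClUrd DUS2L, against 6.63% untreated, and 4.39% in 5-ClUrd DUS1L, against 0.668% untreated. Their median D-loop share was higher with 5-ClUrd in both enzymes. The part of the mix of references in these shares was not tested. The shares sum to 100% within an isoacceptor, so a higher 5′ share lowers the others.

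DUS2L against DUS1L, with 4 libraries each, could reach an exact two-sided permutation p of 0.0286, and 3 of 15 pairs of isoacceptor and region did so, beside 8.15% of 135 such pairs over the 27 tRNA families with at least 20 counts in every library. The T loop (positions 54 to 60) held 2.73% ± 0.862 of Val-TAC counts in DUS2L and 8.91% ± 1.15 in DUS1L libraries (SD, n = 4 each, exact permutation p = 0.0286, adjusted p = 0.143 over the 15 pairs). For Val-AAC it held 1.21% ± 0.693 in DUS2L and 11.9% ± 8.25 in DUS1L libraries (SD, n = 4 each, exact permutation p = 0.0286, adjusted p = 0.143). The Val-AAC D loop held 50.6% ± 3.48 in DUS2L and 32.2% ± 14.99 in DUS1L libraries (SD, n = 4 each, exact permutation p = 0.0286, adjusted p = 0.143). None of the 15 passed after adjustment. The reference of TRV-AAC2-1, with no counts past the D loop, weighed more in Val-AAC in DUS2L libraries. It held 64.2% and 85.9% of Val-AAC there with 5-ClUrd and 73.7% and 74.0% untreated. In DUS1L libraries it held 39.8% and 42.7% with 5-ClUrd and 63.9% and 56.9% untreated. The part of read assignment among references in the Val-AAC differences was not tested. The Val-AAC D-loop difference of 18.4 percentage points was 11.1 without the second untreated DUS1L library, and the Val-AAC T-loop difference of -10.7 was -6.79 without the first. Without sites above 500 counts the T-loop differences were -20.1 for Val-AAC and -3.94 for Val-TAC, and with each site counted once the differences were 6.48 for the Val-AAC D loop, -2.99 for the Val-AAC T loop and -2.75 for the Val-TAC T loop. Val-CAC T-loop shares overlapped, at 16.3% ± 5.90 in DUS2L and 18.1% ± 5.07 in DUS1L libraries (SD, n = 4 each, exact permutation p = 0.743).

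**Figure D4:**
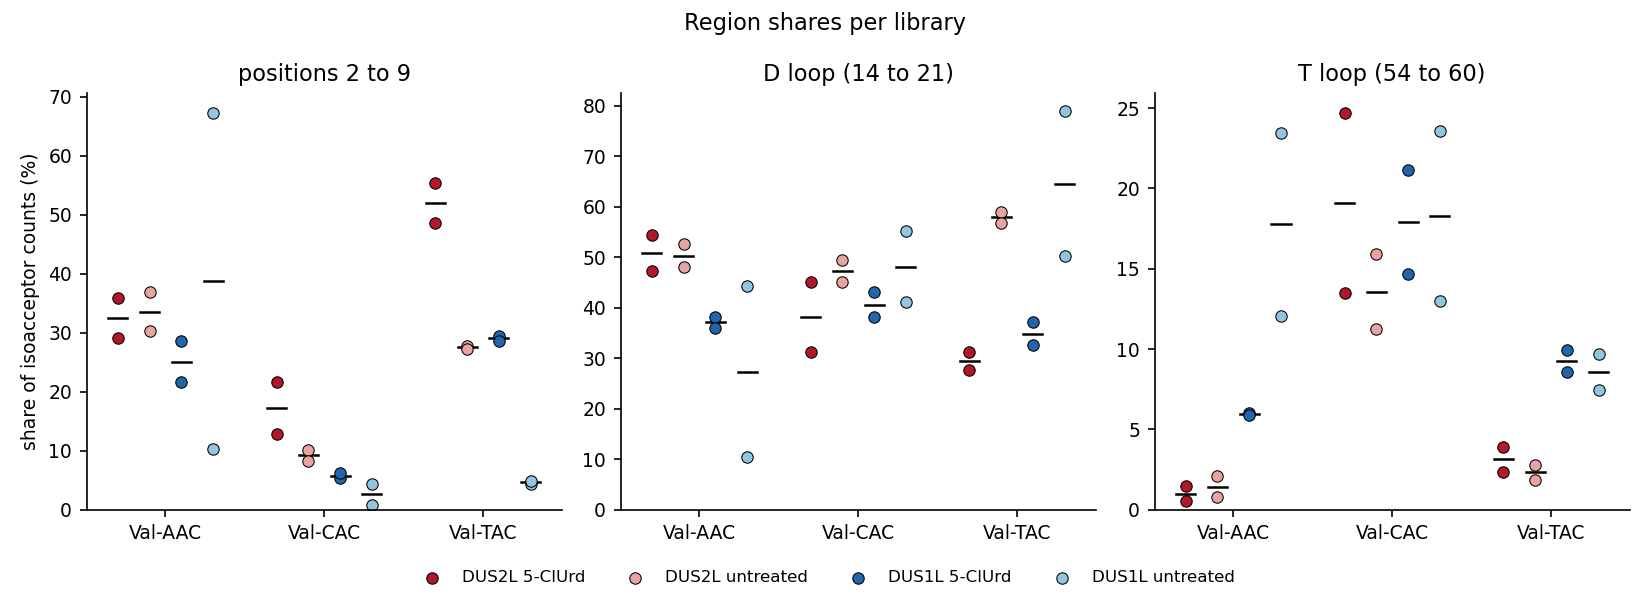
Share of each isoacceptor's counts (%) in positions 2 to 9, the D loop and the T loop, with a point per library and a line at each group's mean. Val-TAC with 5-ClUrd lies higher than untreated in positions 2 to 9 and lower in the D loop for both enzymes, and the T-loop shares of Val-AAC and Val-TAC are lower in all 4 DUS2L libraries than in all 4 DUS1L libraries.

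Set beside other tRNAs, valine tRNAs had high D-loop and low anticodon-loop shares. Among the 27 tRNA families with at least 20 counts in every library, the valine D-loop shares ranked between 1 and 6 from the top in each group, while the median of the other families was 7.79% in 5-ClUrd DUS2L, 5.94% in untreated DUS2L, 15.5% in 5-ClUrd DUS1L and 4.17% in untreated DUS1L libraries. The anticodon loop (positions 32 to 38) held 0.35%, 1.06% and 0.56% of Val-AAC, Val-CAC and Val-TAC counts in 5-ClUrd DUS2L libraries, where the median of the others was 23.2%. These were ranks 27, 25 and 26 of 27. In 5-ClUrd DUS1L libraries they held 1.29%, 2.75% and 1.31%, against a median of 22% in the others. Position 20 of Val-CAC and of Val-TAC ranked first and second of the 27 families in every group. Val-AAC ranked 15 there in 5-ClUrd DUS2L, 10 in untreated DUS2L, 13 in 5-ClUrd DUS1L and 6 in untreated DUS1L libraries. These ranks are a description, since positions were not aligned between families. Val-AAC-1-1, Val-AAC-2-1, Val-TAC-1-1 and Val-TAC-2-1 had no counts past the D loop in any library, so they added none to the anticodon loop. Val-AAC-2-1 alone held a mean of 75.1% of Val-AAC in 5-ClUrd DUS2L and 41.3% in 5-ClUrd DUS1L libraries. The part of read assignment among references in these shares was not tested.

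Counts were spread unevenly over the valine references, and the balance among them differed with enzyme and treatment. Near-identical copies share reads, so references are described without a test. The 6 Val-AAC references were led by that of TRV-AAC2-1 (chr5:181188416-181188488), with 4142 and 6598 counts in 5-ClUrd DUS2L libraries, 1012 and 1362 in untreated DUS2L libraries, 5357 and 3394 in 5-ClUrd DUS1L libraries, and 1117 and 33 in untreated DUS1L libraries. It made up between 39.8% and 85.9% of Val-AAC counts and was the most counted Val-AAC reference in all 8 libraries. The reference of TRV-AAC3-1 (chr6:27650928-27651000) held 10.0% and 3.33% in 5-ClUrd DUS2L libraries, 18.1% and 16.7% in untreated DUS2L libraries, 32.8% and 32.5% in 5-ClUrd DUS1L libraries, and 3.15% and 3.45% in untreated DUS1L libraries.

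Among Val-CAC references, that of TRV-CAC3-1 (chr19:4724635-4724707) held a larger share in every DUS2L library than in any DUS1L library. It held 6021 and 6356 counts in 5-ClUrd DUS2L libraries, against 597 and 722 in 5-ClUrd DUS1L libraries, although the DUS1L libraries were deeper. In untreated cells it held 1022 and 1480 counts in DUS2L libraries, against 158 and 2 in DUS1L libraries. As a share of Val-CAC it took 27.8% and 38.9% in 5-ClUrd DUS2L, 21.1% and 19.96% in untreated DUS2L, 2.07% and 4.44% in 5-ClUrd DUS1L, and 1.28% and 0.541% in untreated DUS1L libraries, with no overlap between the enzymes. The reference that stands for 8 genes with TRV-CAC1-7 (chr1:149712552-149712624) took 29.5% and 17.9% in 5-ClUrd DUS2L, 35.6% and 34.3% in untreated DUS2L, 46.7% and 45.2% in 5-ClUrd DUS1L, and 50.1% and 70% in untreated DUS1L libraries. That of TRV-CAC2-1 (chr6:27280270-27280342) stayed between 18.1% and 41.4% in all libraries. Shares of the TRV-CAC1-7 and TRV-CAC4-1 references did not overlap between the enzymes either. The same held for TRV-AAC2-1, TRV-AAC5-1 and TRV-TAC2-1 within their isoacceptors. Enzyme and making of the files cannot be told apart in these shares.

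Among Val-TAC references, that of TRV-TAC2-1 (chr11:59550987-59551059) had most of its counts in 5-ClUrd DUS2L libraries. It held 1103 and 1388 counts in 5-ClUrd DUS2L libraries, 27 and 51 in untreated DUS2L libraries, 27 and 23 in 5-ClUrd DUS1L libraries, and 12 and 1 in untreated DUS1L libraries. Its neighbour on chromosome 11, TRV-TAC1-1 (chr11:59550629-59550701), shares a reference with TRV-TAC1-2 (chrX:18674909-18674981) and held 30.6% and 28.8% of Val-TAC in 5-ClUrd DUS2L, 21.4% and 20.6% in untreated DUS2L, 37.9% and 38.5% in 5-ClUrd DUS1L, and 23.1% and 31.5% in untreated DUS1L libraries. The reference of TRV-TAC3-1 (chr10:5853711-5853783) took 31.6% and 30.02% in 5-ClUrd DUS2L, 46.2% and 48.9% in untreated DUS2L, 32.6% and 35.8% in 5-ClUrd DUS1L, and 69.7% and 52.4% in untreated DUS1L libraries.

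**Figure D5:**
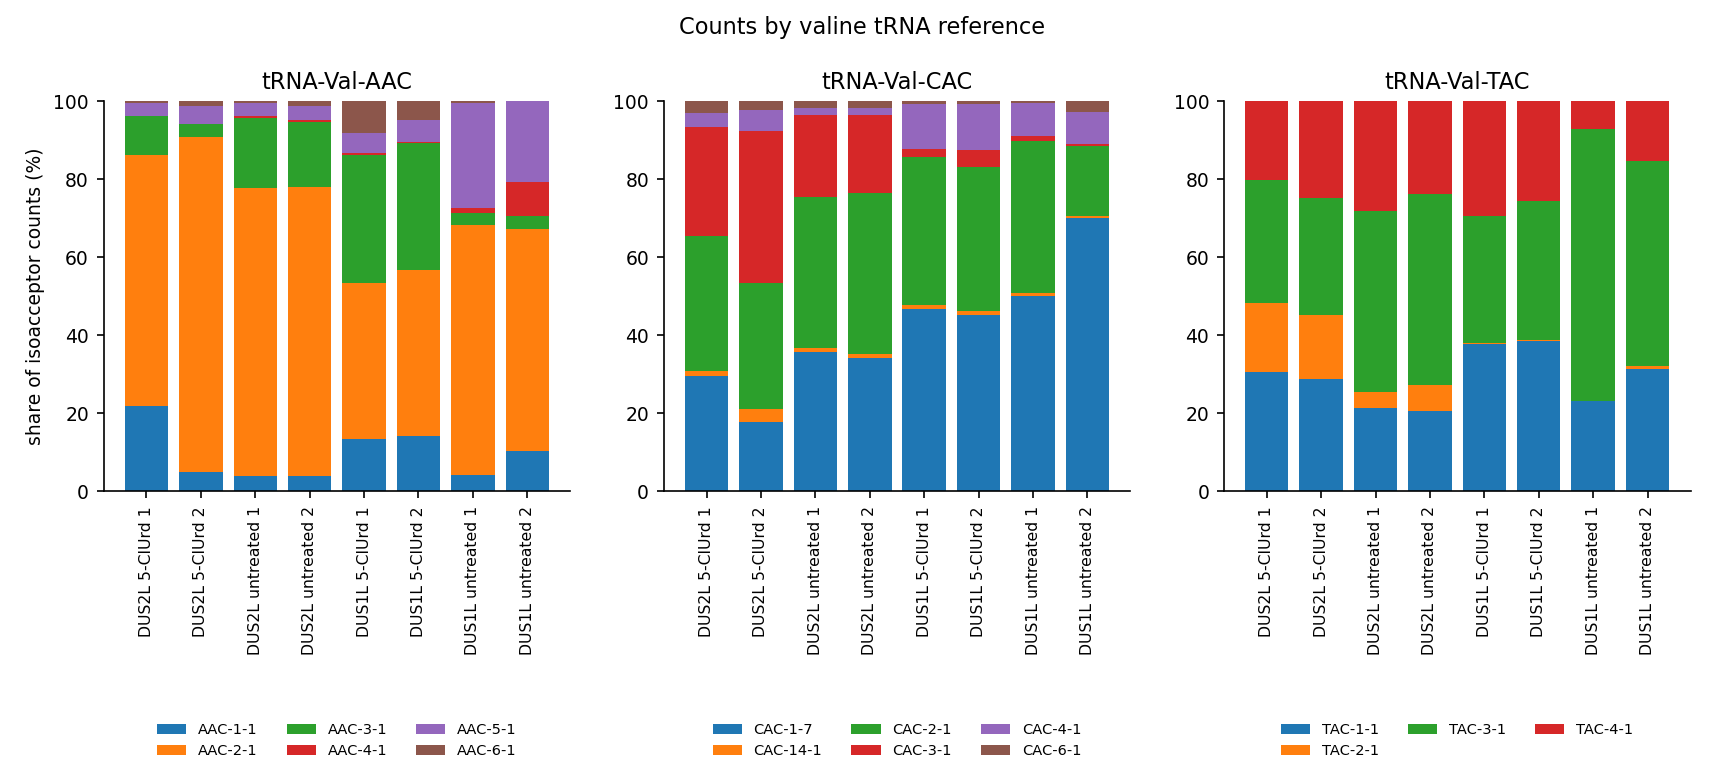
Share of each isoacceptor's counts (%) by reference in each library, stacked to 100%. CAC-3-1 fills 19.96% to 38.9% of Val-CAC in DUS2L libraries and at most 4.44% in DUS1L libraries, and TAC-2-1 reaches 17.7% and 16.4% of Val-TAC in 5-ClUrd DUS2L libraries.

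Single references also had their own leading positions. On TRV-AAC5-1 (chr6:27235509-27235581) position 58 led in DUS1L cells, with 470 and 346 counts with 5-ClUrd and 360 and 7 without, while position 2 led in 5-ClUrd DUS2L libraries, with 141 and 133 counts. In untreated DUS2L libraries position 58 had the highest mean share, 35.8% (8 and 36 counts). Position 2 had 29.7% there (18 and 13 counts) and led in the first library. On TRV-TAC4-1 (chr6:27290626-27290698) position 9 had the highest mean share in 5-ClUrd DUS2L libraries with 405 and 736 counts, ahead of position 2 with 422 and 439, which led in the first library, and position 58 led in 5-ClUrd DUS1L libraries with 1013 and 948. The same position 58 led on TRV-CAC4-1 (chr1:143803994-143804066) in all 4 groups, with mean shares of 69.5% in 5-ClUrd DUS2L, 33.9% in untreated DUS2L, 41.1% in 5-ClUrd DUS1L and 60.0% in untreated DUS1L libraries. On TRV-AAC3-1 position 26 held a mean of 41.4% in 5-ClUrd DUS2L and 43.8% in untreated DUS2L libraries, against 12.0% in 5-ClUrd DUS1L libraries. Counts of Val-AAC-1-1, Val-AAC-2-1, Val-TAC-1-1 and Val-TAC-2-1 lay only at positions 2 to 21, and Val-CAC-1-7 had none at 2 to 9 or 49 to 64, in all 8 libraries. Reads from identical stretches are assigned to one copy or another before deposit, and the part of that in these patterns was not tested.

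The deposited peak lists held 97 valine peaks of 2 to 6 nt, 94 of them on the sense strand, and the score of each equalled the summed site counts inside it. Peaks per library were 7 and 8 with 5-ClUrd and 16 and 13 untreated in DUS2L cells, and 13 and 18 with 5-ClUrd and 16 and 3 untreated in DUS1L cells. Of the 94, 57 overlapped positions 10 to 21, 26 overlapped the T loop at 54 to 60 and 7 lay within positions 1 to 9. The highest score, 3023, was at positions 16 to 20 of the TRV-CAC2-1 reference in the first 5-ClUrd DUS2L library. How peaks were called was not given in the sources used here.

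Across the 8 libraries, the family whose log2 share moved most like Val-TAC was tRNA-Cys-GCA (Pearson r = 0.968), followed by tRNA-Met-CAT (0.898) and tRNA-Tyr-GTA (0.858). For Val-AAC it was tRNA-Ile-GAT (0.935), then an asparagine tRNA with no anticodon stated (0.821) and tRNA-Gln-CTG (0.809). Val-CAC had no close match, with tRNA-Trp-CCA first (0.628). Val-AAC and Val-CAC were themselves unlike, at -0.113. These values are descriptions over libraries that share depth differences and scaling.

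Among lists from textbook tRNA biology, 5 of 8 isoacceptors whose first anticodon base is edited to inosine were higher and 1 lower with 5-ClUrd in DUS2L cells, with a median log2 change of 0.91, beside 0.86 over all families. In DUS1L cells 3 of 7 were higher and none lower, with a median of 1.78, beside 1.35 over all families. Of 11 isoacceptors for the branched-chain amino acids valine, isoleucine and leucine, 5 were higher and 3 lower in DUS2L cells (median 0.49), and 2 were higher and none lower in DUS1L cells (median 2.03). Of all tRNA families, 29 of 50 were higher and 9 lower in DUS2L cells, and 12 of 48 were higher and 1 lower in DUS1L cells.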

How the data were processed

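The authors deposited whole-number counts of crosslinks per position and strand, 1 table per library, and peak intervals scored with summed counts. Alignment used STAR 2.7.0f and hg38, per the submitters' processing notes. Handling of molecular identifiers is not given in the sources used here. Sense counts were summed to families and to sites (family and position). The test was edgeR's quasi-likelihood F test (version 4.0.16, R 4.3.3), run on features that reached 10 counts in all. A feature could reach them through the group where it was high alone, and the counts of called sites include such sites. Counts were scaled to total sense counts, with Benjamini-Hochberg adjustment over all features and a threshold of 0.05. Effects of 5-ClUrd used each enzyme's 4 libraries, and other contrasts all 8. Region shares were compared by exact permutation (scipy 1.17.1), and intervals and floors cover counting error only. Alternatives included TMM, DESeq2 1.42.0, minimum counts of 1 and 50, a replicate block, sites above 500 counts left out and each library left out. The fits were tested on simulated data, with a common mean per feature across groups apart from the changes put in. No bound on site counts was simulated, so these runs do not cover it. Replicates differed beyond sampling noise, with a chi-square per degree of freedom of 54.9 to 285 over families. Sites were named if they held 5% of an isoacceptor's mean counts in a group or were among the 5 largest called rises or falls. Members and lists were chosen with earlier results of these data known. Replicate numbers were treated as names, since same-numbered deviations correlated at 0.212 (DUS2L) and 0.103 (DUS1L) over only 2 numbers.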

Additional observations from a re-analysis of the deposited data

Results flagged for a closer look

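The effect of 5-ClUrd differed between the enzymes by the test of the difference itself for 2 valine families, beside 29.1% of all 55 families. For Val-CAC the effect in DUS2L minus that in DUS1L was 1.43 on the log2 scale, and for Val-TAC it was 2.65 (edgeR adjusted p = 0.0306 for each). Both calls were lost with TMM factors, at 0.51 for Val-CAC and 1.87 for Val-TAC, and when any 1 of the 4 DUS2L or the 2 treated DUS1L libraries was left out (edgeR adjusted p up to 0.118).

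Counts on the antisense strand of valine references, which no comparison used, were higher relative to sense counts in both 5-ClUrd DUS2L libraries than in both untreated DUS2L libraries, on 4 counts in each untreated library. Antisense counts were 15 and 34 in 5-ClUrd DUS2L libraries, against 4 and 4 in untreated DUS2L libraries, and 95 and 41 in 5-ClUrd DUS1L libraries, against 8 and 0 in untreated DUS1L libraries. Scaled to 1000000 sense counts, the lower treated library had 40.4 in DUS2L and 75.6 in DUS1L cells. The untreated libraries had 30.8 and 23.2 in DUS2L and 55.4 and 0 in DUS1L cells, where the 0 allows up to 407, so the DUS1L groups cannot be ordered. Val-TAC-4-1 supplied 68 and 29 of the antisense counts in 5-ClUrd DUS1L libraries.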

How the results depend on the processing

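The library scaling moved the most results. Centring the families with TMM factors brought the median log2 change of all families to 0.21 in DUS2L cells (0.86 when scaled to sense counts) and to 0.32 in DUS1L cells (1.35). The split of called families was 19 higher and 21 lower in place of 29 and 13 in DUS2L cells, 2 and 8 in place of 12 and 1 in DUS1L cells, and 0 and 15 in place of 6 and 10 for the difference of the effects. DESeq2 size factors in edgeR gave 18 and 21 in DUS2L cells and 1 and 9 in DUS1L cells. With TMM factors, Val-AAC changed by 0.21 in DUS2L and -0.42 in DUS1L cells and Val-CAC by -0.28 and -2.11. The difference of the effects was then -0.70 for Val-AAC, 0.51 for Val-CAC and 1.87 for Val-TAC, Val-AAC between treated enzymes was -0.11 and Val-CAC between untreated enzymes -0.27. DESeq2 size factors in edgeR and the DESeq2 Wald test gave for Val-AAC 0.11 in DUS2L and -0.68 in DUS1L cells, for Val-CAC -0.38 and -2.37, for Val-TAC -1.89 in DUS1L cells, for the difference of the effects -0.063 and -0.059 for Val-AAC and 1.16 for Val-CAC, and for Val-CAC between untreated enzymes -0.29. The cause of these shifts was not tested. Valine sites higher and lower in DUS1L cells numbered 2 and 47 with TMM factors, 1 and 45 with DESeq2 size factors, and 0 and 43 by the DESeq2 Wald test, where 7 were higher at an unadjusted p under 0.05. All 3 called 0 sites lower in DUS2L cells, also at an unadjusted p under 0.05. Between treated enzymes 8 were lower with TMM factors, 63 were higher and 0 lower with DESeq2 size factors, and 51 and 0 by the Wald test, with 0 lower at an unadjusted p under 0.05 for both. Val-AAC position 58 between treated enzymes was at 0.016 under both DESeq2 scalings.

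Other settings moved fewer results. Fitting all 8 libraries gave -1.06 with a call for Val-CAC in DUS1L cells and 0.86 with none for Val-AAC in DUS2L cells, with 5 sites higher in DUS1L and 0 lower in DUS2L cells. Minimum counts of 1 and 50 gave 5 and 14 sites higher in DUS1L cells and 1 lower in DUS2L cells for both, with 17 lower in DUS1L cells at 50 and 11 lower between treated enzymes at 1. Among tRNA families alone, Val-CAC between untreated enzymes was -0.51. Without sites above 500 counts, Val-AAC in DUS1L cells was -0.081, Val-CAC in DUS2L cells 0.93, Val-CAC between treated enzymes 1.42, Val-AAC and Val-CAC between untreated enzymes -1.67 and -0.63, the difference of the effects for Val-TAC 3.00, and Val-CAC position 26 in DUS2L cells 0.31, with 48 sites lower in DUS1L and 0 lower in DUS2L cells. The edgeR counts of 0 in DUS2L cells in this paragraph were also 0 at an unadjusted p under 0.05.

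Leaving out each library in turn gave, for the effect in DUS2L cells, 0.71 to 0.99 for Val-AAC and 0.17 to 0.54 for Val-CAC. In DUS1L cells it gave 0.35 to 0.97 for Val-AAC, -1.39 to -0.63 for Val-CAC and -1.12 to 0.46 for Val-TAC. The difference of the effects ran from -0.12 to 0.51, 0.99 to 1.76 and 1.65 to 3.22 for Val-AAC, Val-CAC and Val-TAC. Between treated enzymes Val-CAC ran from 0.47 to 0.85 and Val-TAC from -0.45 to 0.011, and between untreated enzymes Val-AAC from -0.19 to 0.43 and Val-CAC from -1.09 to -0.32. Sites higher and lower numbered 0 to 46 and 0 to 5 in DUS2L cells, 3 to 17 and 1 to 42 in DUS1L cells, and 9 to 21 and 4 to 22 between treated enzymes. In DUS1L cells, Val-TAC ran from -3.64 to 5.31 at position 50, -3.62 to 7.17 at position 45, -3.49 to 7.56 at position 43 and -3.64 to 7.52 at position 42, with each high value coming from the fit without the first untreated library.

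With the replicate block, the family changes were 0.85, 0.36 and 2.09 for Val-AAC, Val-CAC and Val-TAC in DUS2L cells and 0.66, -1.02 and -0.34 in DUS1L cells, and no family result changed its call. Sites higher and lower in DUS1L cells numbered 14 and 7. Samples share only a number here. Depth limits the DUS1L comparison too: the second untreated library had 7369 sense counts, and a site with no count there allows 0.0407% of them.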
